A study of Saccharomyces cerevisiae with 6 samples.

Results

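The histidine biosynthesis genes of budding yeast were followed as a group of 5 genes: HIS1 (YER055C), HIS2 (YFR025C), HIS4 (YCL030C), HIS5 (YIL116W) and HIS7 (YBR248C). They were taken by their systematic names from a table of 7554 transcripts, and all 5 were found. HIS3 and HIS6 of the same pathway are not analysed here. Transcript levels were measured by RNA-seq in 2 strains with 3 libraries each. Strain yMH007 carries dChr, an artificial chromosome that stores data, and control strain yMH104 has an empty plasmid instead. Cells of both grew at 30 °C in SC-Ura, a synthetic medium without uracil, from an optical density of 0.2 to between 1.0 and 1.2. The labels give no further genotype and each condition is 1 strain, so dChr and any other difference between the strains cannot be told apart. Whether the libraries are of separate cultures is not stated either, and p-values therefore measure only the spread among these libraries, which may be technical.

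Yeast makes histidine from phosphoribosyl pyrophosphate (PRPP) and ATP along an unbranched pathway. The pathway releases AICAR, which is also an intermediate of purine synthesis, so the pathways are linked. Synthetic complete media supply histidine. Transcription of many amino acid biosynthesis genes is under general amino acid control: Gcn4, an activator whose own translation is raised when the kinase Gcn2 senses uncharged tRNA, binds sites with the core TGACTC. Bas1, which acts with Pho2 on purine genes and on HIS4 and HIS7, recognises the same core. In the pathway His1 catalyses the first step and is inhibited by histidine, His4 is a multifunctional enzyme of early and final steps, His7 makes the imidazole ring and releases AICAR, His5 is the aminotransferase and His2 the phosphatase that yields histidinol.

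Each gene has 1 coding exon and overlaps 0 other coding genes on the R64 reference, the assembly also called sacCer3. HIS1 is at chrV:264892-265785 on the minus strand and HIS4 at chrIII:65934-68333 on the minus strand. HIS7 is at chrII:714807-716465 on the minus strand, HIS5 at chrIX:142928-144085 on the plus strand and HIS2 at chrVI:203743-204750 on the minus strand. The coding sequences hold 297 codons in HIS1, 799 in HIS4, 552 in HIS7, 385 in HIS5 and 335 in HIS2, without the stop codon.

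The core TGACTC was searched on both strands in the 200 bases from 300 to 101 before each start codon. It was found 8 times, in 4 of the 5 genes: 3 times in HIS4, 2 times each in HIS1 and HIS7, 1 time in HIS5 and 0 times in HIS2. Of 6001 nuclear coding genes with a window of this length, 5.85% held the core at least once and 0.417% at least 2 times. The longer form TGACTCA, which contains the core, occurred once in each of HIS1, HIS4, HIS5 and HIS7, against 2.10% of all windows with at least 1. The windows of HIS4, HIS5 and HIS2 are printed 5′ to 3′ on the coding strand of each gene, from RefSeq R64, because they hold the most matches, a single match and no match among the 5 genes. Capitals mark the core or its reverse complement. The HIS4 window is chrIII:68434-68633, minus strand, and its first 35 bases lie inside BIK1. The HIS5 window is chrIX:142628-142827, plus strand. The HIS2 window is chrVI:204851-205050, minus strand, and contains a gene for an alanine tRNA at chrVI:204924-204996.
HIS4: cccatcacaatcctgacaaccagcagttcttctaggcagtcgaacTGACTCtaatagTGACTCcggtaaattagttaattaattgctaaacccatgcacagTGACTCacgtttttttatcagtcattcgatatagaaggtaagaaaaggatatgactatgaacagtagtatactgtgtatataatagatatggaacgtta
HIS5: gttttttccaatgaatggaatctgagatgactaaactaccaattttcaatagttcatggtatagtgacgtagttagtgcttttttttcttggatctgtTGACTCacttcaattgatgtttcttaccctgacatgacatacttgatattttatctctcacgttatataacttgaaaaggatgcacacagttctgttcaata
HIS2: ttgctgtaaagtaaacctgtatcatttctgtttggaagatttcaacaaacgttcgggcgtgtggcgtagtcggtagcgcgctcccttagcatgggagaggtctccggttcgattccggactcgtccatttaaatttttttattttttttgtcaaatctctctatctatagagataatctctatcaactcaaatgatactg

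In HIS4 the cores begin 255, 243 and 199 bases before the start codon, and the one at 199 extends to TGACTCA. The core of HIS5 begins at 202 bases and also extends to it. HIS1 has cores at 282 and 183 bases, and HIS7 at 230 and 144 bases. A match is a description of the letters and was not tested as a binding site, and no match in HIS2 says only that these letters are not in its window.

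**Figure D1:**
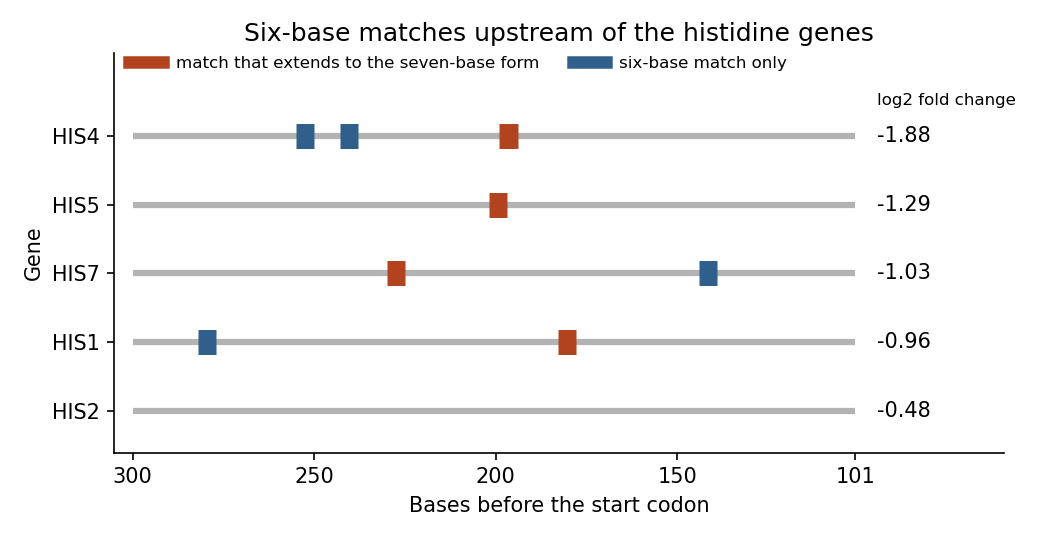
Position of TGACTC cores (blocks) in the window from 300 to 101 bases before the start codon (x axis, bases) of each gene (y axis), ordered by log2 fold change, dChr minus control (right). HIS4, with 3 blocks, stands at -1.88 and HIS2, with none, at -0.48; HIS5 has fewer blocks than HIS7 and HIS1 and a larger fall.

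The first comparison asked how the histidine genes differ between the dChr strain and the control. All 5 genes were lower in the dChr strain, and for each of the 5 every dChr library lay below every control library. HIS4 fell furthest, to 188 ± 30.1 TPM from 691 ± 82.6 (SD, n = 3), and HIS2 least, to 18.8 ± 0.373 from 26.7 ± 2.99 TPM. TPM is an abundance corrected for transcript length and scaled per library, and the library totals here were 970077 to 992087. The genes were tested with limma among the 5938 transcripts whose mean reached 1 TPM, on log2(TPM + 1), and all 5 passed at a Benjamini-Hochberg adjusted p under 0.05. Of all tested transcripts 9.16% were called lower and 4.19% higher, and 21.2% had every dChr library below every control library. The split between higher and lower calls depends on scaling: 249 were higher and 544 lower on the values as deposited, 505 and 637 after median-ratio scaling, and 555 and 561 after quantile normalization. The 5 genes had a median log2 fold change of -1.03, against -0.04 over all tested transcripts.

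HIS1, the entry enzyme of the pathway, stood at 110.4, 136.3 and 100.1 TPM in control libraries 1, 2 and 3 and at 52.1, 63.1 and 60.6 TPM in dChr libraries 1, 2 and 3. The lowest control value is well above the highest dChr value. Its log2 fold change was -0.96 ± 0.14 (SE, limma adjusted p = 0.00713).

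HIS4 stood at 752.5, 723.4 and 597 TPM in the control libraries and at 160.3, 220 and 183.6 TPM in the dChr libraries. The strains are far apart, and control library 3 and dChr library 2 are the ones nearest the other strain. The log2 fold change was -1.88 ± 0.15 (SE, limma adjusted p = 0.000863), a level 3.67-fold lower on the log2(TPM + 1) scale. When the 5938 tested transcripts were ordered from the largest fall, HIS4 held place 86.

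HIS7, whose enzyme closes the imidazole ring with nitrogen from glutamine, stood at 26.4, 29.4 and 26.2 TPM in the control libraries and at 11.1, 15.3 and 12.4 TPM in the dChr libraries. The control values lie close together and all above the dChr values. The log2 fold change was -1.03 ± 0.13 (SE, limma adjusted p = 0.00461).

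HIS5, the aminotransferase gene, stood at 42.7, 36.7 and 32.3 TPM in the control libraries and at 12.6, 16.6 and 14.7 TPM in the dChr libraries. Its lowest control value, in library 3, is above the highest dChr value, in library 2. The log2 fold change was -1.29 ± 0.14 (SE, limma adjusted p = 0.00277). HIS4, HIS5 and HIS7 were the 3 genes called at least 2-fold lower, a size reached by 3.28% of all tested transcripts in this direction. HIS7 and HIS1 lie near this cut, and their side of it depends on the setting. With a pseudocount of 5 the log2 fold change of HIS7 was -0.85. Without mitochondrial and non-coding transcripts that of HIS1 was -1.05.

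HIS2, the histidinol phosphatase gene, stood at 24.3, 30.1 and 25.7 TPM in the control libraries and at 19.1, 18.4 and 18.9 TPM in the dChr libraries. The groups do not overlap, and control library 1 is the control library nearest to the dChr values. The log2 fold change was -0.48 ± 0.10 (SE, limma adjusted p = 0.0279). This call rests on the full set of libraries: it was lost without any single dChr library or without control library 3 (limma adjusted p from 0.0659 to 0.1001), with log2 fold changes between -0.50 and -0.46 in those fits. The calls of the other 4 genes held in each of the 6 fits that left out a library.

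**Figure D2:**
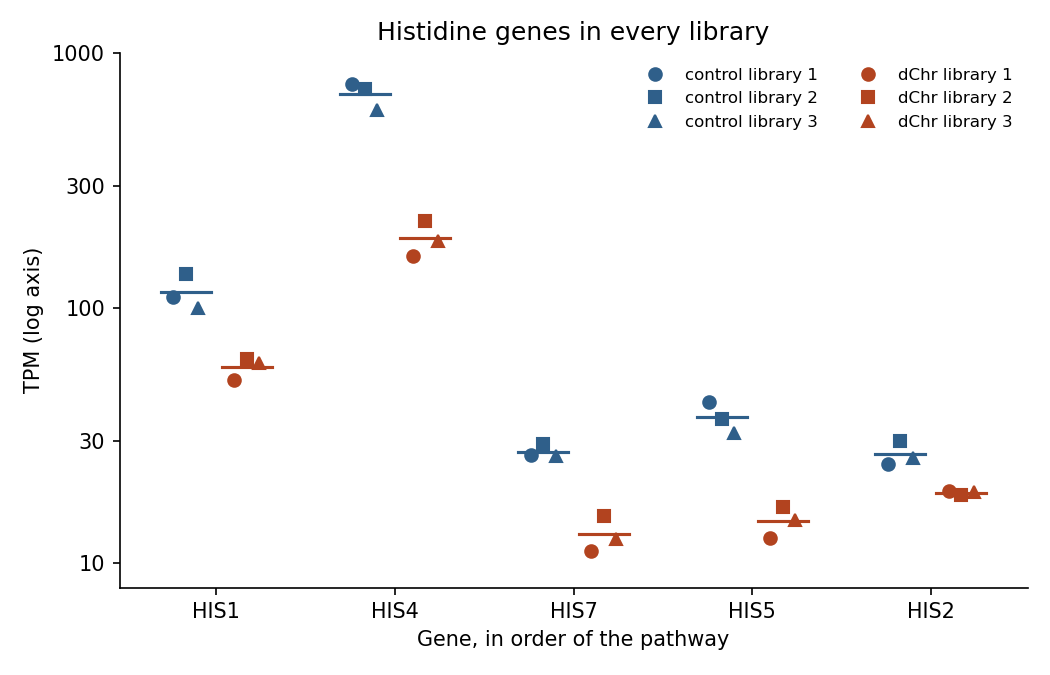
TPM (y axis, log scale) of each histidine gene (x axis) in each library, control in blue and dChr in red, with the library number by symbol and the strain mean as a line. Every dChr point lies below every control point of the same gene; HIS4 is separated most (597 to 752.5 against 160.3 to 220 TPM) and HIS2 least (24.3 to 30.1 against 18.4 to 19.1 TPM).

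Within the dChr strain, library 2 held the highest value of HIS1, HIS4, HIS5 and HIS7 and the lowest of HIS2. In the control, library 3 held the lowest value of HIS1, HIS4, HIS5 and HIS7, and library 1 the lowest of HIS2. Pearson's r with the mean profile of the 5 genes, in which each gene is itself included, was 0.991 or more for HIS1, HIS4 and HIS7, 0.981 for HIS5 and 0.953 for HIS2 over the 6 libraries, which is a description dominated by the difference between the strains.

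Among the 5 genes the order of levels per length differed between the strains. HIS4 was the highest and HIS1 the next in each of the 6 libraries. In the 3 dChr libraries HIS2 came next, followed by HIS5 and HIS7. In the 3 control libraries HIS5 came next, and HIS2 and HIS7 did not keep an order: HIS2 was above HIS7 in control library 2 and below it in the other controls, with means of 26.7 ± 2.99 and 27.3 ± 1.77 TPM. In the dChr strain HIS5 and HIS7 also lie within their spread of each other (14.6 ± 2.03 and 12.9 ± 2.17 TPM), although HIS5 was the higher in each library. Levels were also ranked among all 6483 entries of the table taken as coding, by open reading frame name or annotation. These entries include names with no match in RefSeq R64. HIS4 stood above 98.0% to 98.6% of them in the control libraries and above 93.9% to 95.1% in the dChr libraries. HIS5 stood above 80.1% to 83.7% in the control and 65.3% to 69.2% in the dChr libraries, and HIS2 above 76.1% to 77.3% and 71.2% to 73.3%. These ranks do not depend on scaling between libraries.

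The unequal size of the falls was compared by ratios within a library, which also do not depend on scaling. The ratio of HIS4 to HIS7 was 28.5, 24.6 and 22.8 in the control libraries and 14.4, 14.4 and 14.8 in the dChr libraries. The dChr ratios are nearly equal to each other and all below the control ratios, with a log2 difference of -0.79. HIS2 relative to HIS4 moved most, by 1.38 on the log2 scale: HIS2 stood at 3.23%, 4.16% and 4.30% of the HIS4 level in the control libraries and at 11.9%, 8.37% and 10.3% in the dChr libraries. HIS1 relative to HIS7 moved least, by 0.12 on the log2 scale, with ratios of 4.17, 4.64 and 3.83 in the control and 4.69, 4.12 and 4.89 in the dChr libraries, which overlap. For 9 of the 10 pairs the ratios did not overlap between strains. The 10 pairs share genes and so are not independent, and the share over pairs of other genes was not computed. Each of the 9 reached p = 0.1 in a two-sided exact permutation test over libraries, the smallest p that 3 against 3 allows (0.111 after adjustment over the 10 pairs), and HIS1 to HIS7 gave an exact p = 0.4. This permutation test cannot pass 0.05 with 3 against 3 libraries, and no other test of the ratios was run.

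**Figure D3:**
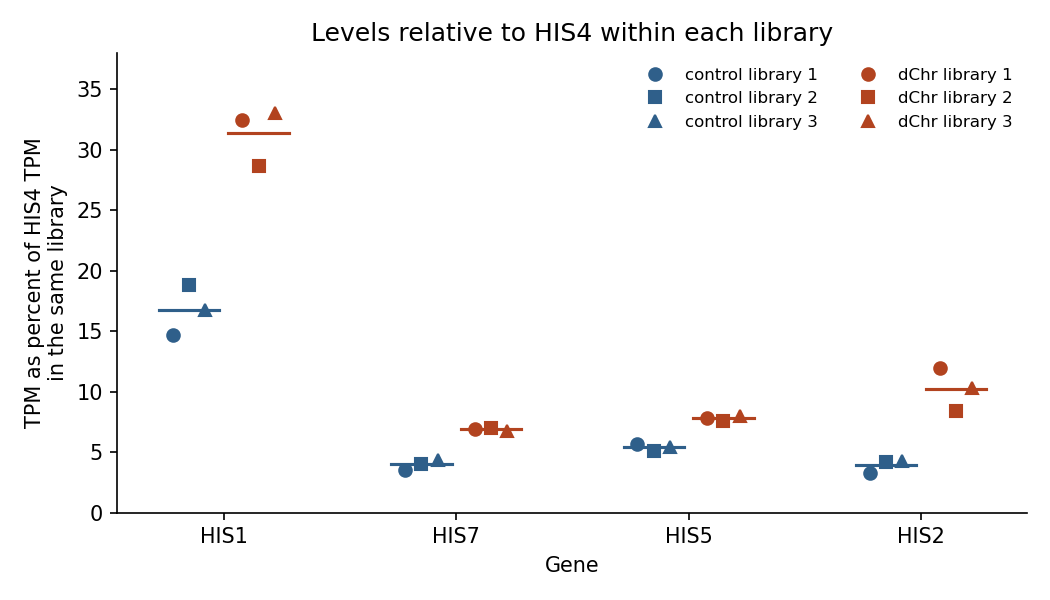
TPM of HIS1, HIS7, HIS5 and HIS2 (x axis) as a percent of the HIS4 TPM of the same library (y axis), control in blue and dChr in red, with the library number by symbol and the strain mean as a line. The dChr points are higher for each gene, for HIS1 at 28.7% to 33.0% against 14.7% to 18.8% in the control.

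The summed level of the 5 genes was 898 ± 101 TPM in the control libraries and 293 ± 39.2 TPM in the dChr libraries. HIS4 made up 76.9% ± 1.57 of this sum in the control and 64.0% ± 1.71 in the dChr strain, and HIS1 12.9% ± 1.36 and 20.1% ± 1.02 (SD, n = 3). HIS2 made up 2.99% ± 0.395 and 6.51% ± 0.990.

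The next comparison was of the genes that regulate this pathway. Of 6 regulator genes tested, 1 was called lower and 0 higher, against 9.16% and 4.19% of all tested transcripts. Their median log2 fold change was -0.09. GCN4, the activator of general amino acid control, stood at 650.7, 665.3 and 581.7 TPM in the control libraries and at 438.4, 495.3 and 427.6 TPM in the dChr libraries. The groups do not overlap, and the log2 fold change of its transcript was -0.48 ± 0.10 (SE, limma adjusted p = 0.0250). The call was lost without dChr library 1 or 3 or control library 1 or 2 (limma adjusted p from 0.0639 to 0.102). Much of the control of Gcn4 is translational, so its transcript level does not give its protein level. BAS1 stood at 3.78, 4.33 and 2.50 TPM in the control libraries and at 1.57, 2.05 and 1.28 TPM in those with dChr (log2 fold change -0.77 ± 0.22 SE, limma adjusted p = 0.0676). Its libraries do not overlap, but it missed the threshold. It was called lower after median-ratio scaling and after quantile normalization (limma adjusted p = 0.0398 and 0.0463), among other settings. PHO2, the partner of Bas1, was at 6.31 ± 0.785 against 4.92 ± 1.20 TPM and GCN2 at 7.53 ± 0.646 against 8.28 ± 0.8004 TPM, dChr first. RAP1, whose protein binds upstream of HIS4, and ABF1, whose protein binds upstream of HIS7, were at 10.3 ± 0.421 against 10.9 ± 1.58 and at 2.67 ± 0.289 against 2.84 ± 0.611 TPM. The libraries of these 4 genes overlap between the strains and none was called (limma adjusted p from 0.300 to 0.873).

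Genes for histidine uptake and use were compared next. Of 5 tested, 2 were called lower and 0 higher, against 9.16% and 4.19% of all tested transcripts. All 5 had a negative log2 fold change, with a median of -0.33. HIP1, the high-affinity histidine permease, stood at 118.1, 115 and 97.5 TPM in the control libraries and at 65.4, 74.4 and 74.7 TPM in the dChr libraries (log2 fold change -0.62 ± 0.11 SE, limma adjusted p = 0.0136). The groups are apart, though the call was lost without dChr library 1 (limma adjusted p = 0.0580). GAP1, the general amino acid permease, fell by 2.11 ± 0.10 on the log2 scale (limma adjusted p = 0.000167). HTS1, the histidyl-tRNA synthetase, had 40.2 ± 0.557 TPM with dChr against 50.8 ± 7.26 without and was not called (limma adjusted p = 0.122), although its libraries did not overlap. It was called lower when mitochondrial and non-coding transcripts were removed (limma adjusted p = 0.0349). VBA1 and VBA2, vacuolar transporters of basic amino acids, were at 36.1 ± 2.81 against 42.7 ± 4.17 and at 26.5 ± 2.09 against 33.6 ± 4.29 TPM, with overlapping libraries and no call. VBA3 was under 1 TPM in each library and was not tested.

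**Figure D4:**
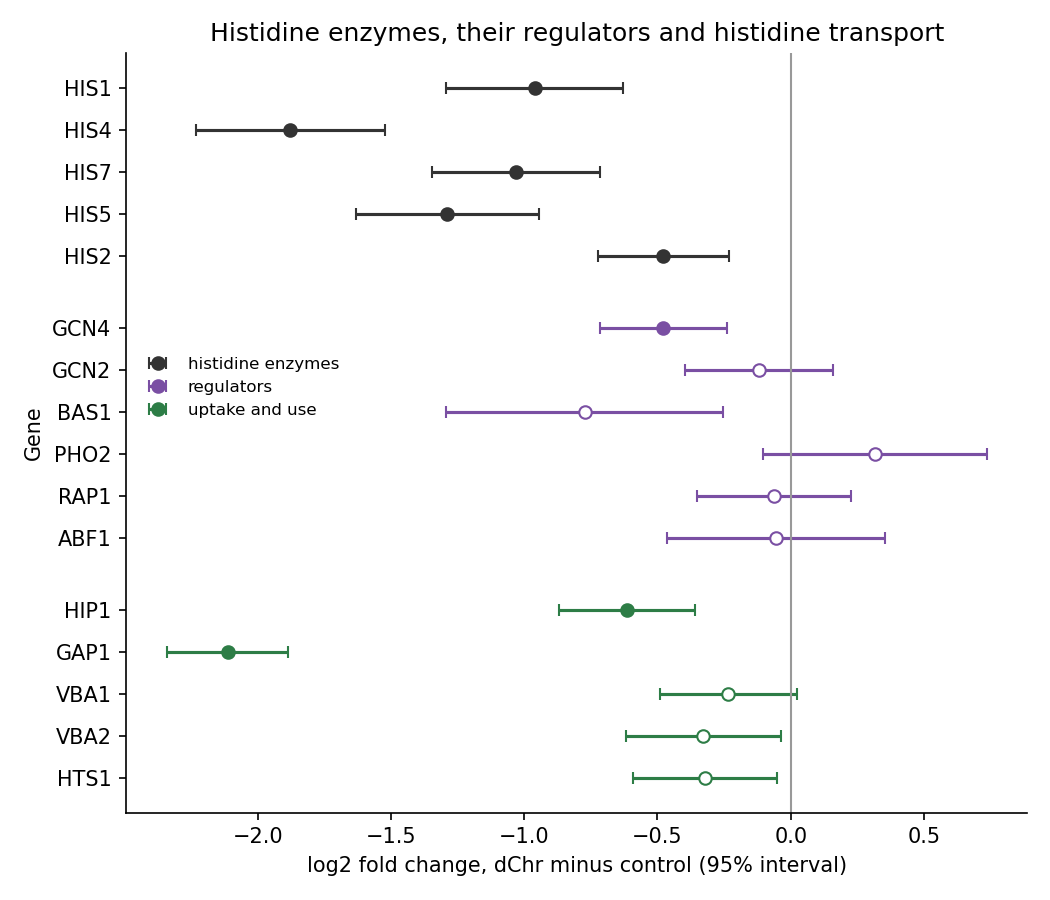
Log2 fold change, dChr minus control (x axis), with 95% interval from limma, for histidine enzymes (black), regulators (purple) and genes of histidine uptake and use (green); filled points passed an adjusted p under 0.05. The 5 enzymes lie between -1.88 and -0.48, GCN4 is the filled regulator at -0.48, and GAP1 lies furthest left at -2.11.

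The pathway draws on PRPP, glutamine and glutamate and returns AICAR to purine synthesis. Of 6 supply genes 1 was called lower and 0 higher, against 9.16% and 4.19% of all tested transcripts. A negative log2 fold change was seen in 3 of the 6. The called gene, GLN1, the glutamine synthetase, stood at 278.4, 357.7 and 310.7 TPM in the control libraries and 135.7, 162.9 and 172.2 TPM in the dChr libraries (log2 fold change -1.003 ± 0.13 SE, limma adjusted p = 0.00527). None of the 5 PRPP synthetase genes PRS1 to PRS5 was called (limma adjusted p from 0.409 to 0.840), and PRS5 had 1 library apart, at 48.5 TPM in dChr library 3 against 8.06 to 13.97 TPM in the others. Of 12 purine and AICAR genes 4 were called lower and 1 higher. A negative log2 fold change was seen in 8 of the 12, with a median of -0.28. The count called lower depends on single libraries: it was 1 without any single dChr library and 2 without control library 1 or 2. ADE12, the adenylosuccinate synthase, fell by 0.91 ± 0.10 on the log2 scale, from 185.8 ± 10.1 to 98.6 ± 9.04 TPM. ADE3, a one-carbon enzyme that supplies purine synthesis, fell by 0.51 ± 0.09, a call lost without any single dChr library (limma adjusted p from 0.0582 to 0.0615). The AICAR transformylase isoenzymes did not share a direction. ADE16 was higher with dChr by 0.40 ± 0.10 on the log2 scale (limma adjusted p = 0.0474), but not without any single dChr library, control library 1 or control library 3 (limma adjusted p from 0.112 to 0.146) and under some other settings. ADE17 had 141.4 ± 28.2 TPM with dChr against 208.3 ± 21.1 without and was not called (limma adjusted p = 0.0770). ADE1 and ADE2 were at 88.5 ± 17.8 against 87.3 ± 4.48 and at 79.2 ± 9.79 against 78.8 ± 6.92 TPM, dChr first.

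The nearest coding gene on each side of the 5 genes was examined to see whether the differences were shared along the chromosome. Of 9 neighbours tested 3 were called lower and 0 higher, against 9.16% and 4.19% of all tested transcripts. A negative log2 fold change was seen in 6 of the 9. FCY2, a purine and cytosine permease 726 bases upstream of HIS1 on the same strand, stood at 181.9, 199.9 and 169.3 TPM in the control libraries and at 34.2, 46.7 and 41.0 TPM in the dChr libraries. It fell by 2.16 ± 0.13 on the log2 scale (limma adjusted p = 0.000355), against 0.96 for HIS1. GIP2, 1193 bases downstream of HIS1, was at 1.80 ± 0.0448 TPM in the dChr strain against 1.55 ± 0.741. Its libraries overlap and it was not called (limma adjusted p = 0.698). HIS7 lies between ENP1, a ribosome assembly gene, and ARO4, which catalyses the entry step of aromatic amino acid synthesis. ENP1 fell by 1.21 ± 0.18 and ARO4 by 0.89 ± 0.11 on the log2 scale (limma adjusted p = 0.00728 and 0.00376). The neighbours of HIS4, HIS5 and HIS2 showed no call. RRP7, next to HIS4, was at 5.76 ± 1.06 TPM in the dChr strain against 6.42 ± 0.695, and BIK1, 265 bases upstream of HIS4, had a mean under 1 TPM in both strains and was not tested. PRM5 and NUP159 beside HIS5 were at 49.9 ± 1.52 against 50.0 ± 5.86 and at 21.3 ± 1.18 against 19.4 ± 3.50 TPM. LSB3 and ULI1 beside HIS2 were at 28.9 ± 2.03 against 30.8 ± 6.90 and at 4.48 ± 1.08 against 4.92 ± 2.05 TPM.

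**Figure D5:**
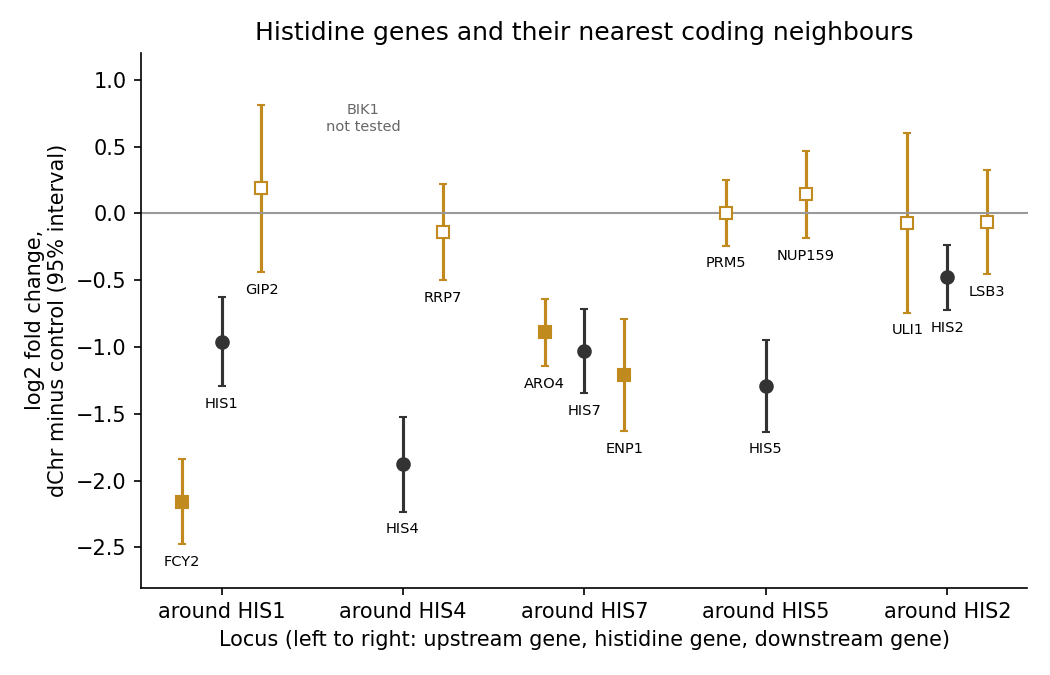
Log2 fold change, dChr minus control, with 95% interval from limma (y axis), for each histidine gene (circle) and its nearest upstream and downstream coding neighbours (squares), by locus (x axis); filled symbols passed an adjusted p under 0.05. FCY2 at -2.16, ENP1 at -1.21 and ARO4 at -0.89 are the filled neighbours.

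Other amino acid pathways were set beside the histidine genes by the same fit, with no test of a difference between pathways. Of all tested transcripts 9.16% were called lower. Of 9 arginine genes 9 were called lower, with a median log2 fold change of -2.08, with ARG1 and ARG3 at the smallest p. Of 9 lysine genes 8 were called lower and 9 had a negative log2 fold change. The lysine median was -0.82, with LYS20 at -2.02 and LYS2 at -1.22. Of 14 aromatic genes 11 were called lower and 14 had a negative log2 fold change. The aromatic median was -0.67, with ARO9 at -2.38 and TRP3 at -1.22. None of these lists had a gene called higher. The median of the histidine genes, -1.03, lies between those of the arginine and lysine genes. Some calls in these lists depend on 1 library: leaving out dChr library 1, 2 or 3 or control library 1 left 5 lysine genes called.

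The TGACTC core was counted against the calls over all genes as a description. Of 310 tested genes with the core in the window, 4 of them histidine genes, 93 were called lower (30.0%) and 7 higher, with a median log2 fold change of -0.21. Of 23 tested genes with at least 2 cores, which include HIS1, HIS4 and HIS7, 14 were lower and 0 higher, with a median of -0.69. Of 4772 tested genes with no core in the window, which include HIS2, 396 were lower (8.30%) and 210 higher, with a median of -0.03. The share of genes with a core was not tested against the rest.

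Of 5108 other annotated transcripts, the 5 most like the mean profile of the histidine genes over the 6 libraries were YBR238C, LYS21, TRP2, VBA4 and FUI1, with Pearson's r of 0.999, 0.999, 0.998, 0.998 and 0.997. These r are the highest of all candidates and are also dominated by the difference between the strains. They do not reflect the size of the falls, with log2 fold changes from -1.17 for FUI1 to -0.37 for VBA4. URA3, selected by the medium, had 43.4 ± 3.53 TPM with dChr and 42.4 ± 6.56 without.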

How the data were processed

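RNA was measured in 3 dChr and 3 control libraries. The authors deposited TPM values (a length-corrected abundance) for 7554 transcripts in a single table. The tools listed, per the submitters' processing notes, were StringTie 2.0, HISAT2 2.0.5, cutadapt 2.6, R 3.6.0 and DESeq2, on sacCer3; what each did, the strand setting and filters are not stated, so reads of a gene and of antisense RNA cannot be told apart. TPM keep no sequencing depth, so depth is unknown and no counting interval can be had. Library totals were 970077 to 992087 TPM. Entries taken as coding held 42.0% to 49.7% of the total, and non-coding entries 18.2% to 34.6%. Assembled transcripts outside the annotation held 20.3% to 34.9%, and the alternative without mitochondrial and non-coding transcripts kept them. Values were analysed as log2(TPM + 1), which understates changes of low genes, with limma 3.58.1 (eBayes with trend, two-sided, R 4.3.3) over the 5938 transcripts averaging 1 TPM or more, Benjamini-Hochberg adjusted at 0.05, with no replicate term. The fit code was run on data simulated with independent normal errors of equal spread in both strains. That run checks the code and cannot show whether the real libraries meet these terms. Ratios within a library used TPM with no pseudocount. Gene names, positions and sequences came from RefSeq R64, where 5928 entries matched. Gene members, lists, the upstream window and the motif were chosen with earlier results of these data known. Named genes were the 5 genes, the regulator and uptake lists, nearest neighbours, the 5 most alike transcripts, and called genes with the smallest p in the other lists; PRS1 to PRS5, ADE1, ADE2 and ADE17 were named in addition. Alternatives were pseudocounts of 0.1 and 5, no filter or a mean of at least 10 TPM, quantile normalization, median-ratio scaling, leaving out mitochondrial and non-coding transcripts, other eBayes settings, each library left out in turn, and a replicate block. Python 3.11.15, scipy 1.17.1, numpy 2.4.6 and pandas 2.3.3 were used.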

Additional observations from a re-analysis of the deposited data

How the results depend on the processing

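The 5 histidine genes were called lower under each of the 10 alternatives that kept the 6 libraries. Their log2 fold changes ranged from -1.96 to -1.81 for HIS4, from -1.38 to -1.10 for HIS5, from -1.13 to -0.85 for HIS7, from -1.05 to -0.89 for HIS1 and from -0.56 to -0.37 for HIS2. Leaving out a library gave -2.00 to -1.77 for HIS4, -1.38 to -1.19 for HIS5, -1.15 to -0.94 for HIS7, -1.06 to -0.84 for HIS1 and -0.54 to -0.39 for HIS2, whose call was lost in 4 of the 6 fits, with log2 fold changes from -0.50 to -0.46. Over all transcripts, 505 were higher after median-ratio scaling and 555 after quantile normalization, where the median log2 fold change over transcripts was 0.01 and 0.04 instead of -0.04; it was -0.12 without mitochondrial and non-coding transcripts. Leaving out a library, which leaves fewer samples, gave 101 to 246 higher and 253 to 402 lower transcripts. The lowest counts came without dChr library 1 (101 and 253), and 124 and 153 were higher without dChr libraries 2 and 3, 142 without control library 3, and 292 and 353 lower without dChr library 3 and control library 2. Over the 70 other tested genes (the lists, the neighbours and URA3), 64 results lost their call, 13 gained one and 1033 kept their side of the threshold, and no called direction changed.

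With a replicate block 268 transcripts were higher and 566 lower, the 5 histidine genes kept their calls (HIS2 limma adjusted p = 0.0492), BAS1 and ADE8 gained a call and ADE5,7 lost its own. For libraries with the same number, deviations from the strain mean correlated at 0.09, -0.08 and 0.12, and the labels give no shared day, so the libraries share a number and no pairing is established.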
